A study of Mus musculus with 7 samples.

Results

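The alpha and mu classes of glutathione transferase were followed as 10 endogenous mouse genes in the retinal pigment epithelium (RPE), a sheet of pigmented cells on which the photoreceptors rest. The genes were the rows of the count table with the symbols Gsta1, Gsta2, Gsta3 and Gsta4 (alpha class, 4 rows) and Gstm1, Gstm2, Gstm4, Gstm5, Gstm6 and Gstm7 (mu class, 6 rows), out of 21861 rows in all. They were chosen by name, and the row of the human GSTA4 transgene was kept apart from them. The 7 libraries came from mice labelled old, 3 given an adeno-associated virus (AAV) coding for GFP and 4 given an AAV coding for GSTA4, and the tissue was taken 12 weeks later. Both groups therefore carry a vector, and no untreated or young group was analysed here. The labels used here give neither the strain, sex or age in months of the mice nor the serotype and promoter of the vectors, and they do not say whether each library came from a different animal, so p-values measure only the spread between these samples.

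Glutathione transferases join the thiol of glutathione to electrophiles, which makes them more soluble and marks them for export from the cell. Alpha enzymes are known for work on products of lipid peroxidation: GSTA4 has high activity toward 4-hydroxynonenal, an aldehyde formed from polyunsaturated lipids, and GSTA1 and GSTA2 also reduce lipid hydroperoxides. Mu enzymes take a broad range of electrophiles, including epoxides and quinones. The photoreceptor outer segments that the RPE engulfs each day are rich in polyunsaturated lipids, and several genes of both classes are known targets of NRF2 (gene Nfe2l2), a transcription factor that binds antioxidant response elements. Introducing GSTA4 with a vector raises the question of whether the cell's own genes of the same family differ beside it.

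All 10 genes were detected in all 7 libraries, all 10 passed the expression filter, and none differed between the vectors beyond the spread of replicates. Expression is given in CPM, read counts made comparable across libraries by total count and trimmed-mean (TMM) factors, and values are listed in the order of replicates 1 to 3 for AAV-GFP and 1 to 4 for AAV-GSTA4. Adjusted p-values from edgeR's quasi-likelihood test, corrected over the 15075 genes tested, lay between 0.501 and 0.962 for the 10 genes, and the threshold was 0.05. That test called 0 of the 10 and 0% of all genes. At an unadjusted p under 0.05 it again called 0 of the 10, against 1794 genes or 11.9% of all genes tested. In each of the 10 genes the 2 groups overlapped, whereas groups without overlap were found for 12.0% of all genes. DESeq2, run as an alternative, called 0 of the 10, and 199 or 1.75% of the 11369 genes to which it gave an adjusted p, and its smallest adjusted p among the 10 was 0.413, for Gstm7. The fitted log2 fold change, AAV-GSTA4 against AAV-GFP, was above 0 for 7 genes and below 0 for 3, with a median of 0.18. Over all genes tested the median was -0.07, with 6720 genes above 0 and 8355 below.

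The libraries were unequal, and this touches every value that follows. Totals lay between 15329181 and 28998964 counts, so that the smallest level distinguished from 0, set at 3 counts, was 0.111 to 0.176 CPM. The biological coefficient of variation was 48.2%. AAV-GFP replicate 3 stood apart with a TMM factor of 1.36, the lowest share of counts on RPE markers and the highest on rod markers. All 20 RPE markers were detected in every library, as were all 20 rod markers. RPE markers took 3.42% to 7.60% of counts in AAV-GFP and 5.99% to 10.2% in AAV-GSTA4. Rod markers took 1.88%, 3.29% and 6.55% in AAV-GFP and between 0.958% and 1.72% in AAV-GSTA4, without overlap. In such bulk tissue, fewer cells of a type and less RNA per cell cannot be told apart.

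**Figure D1:**
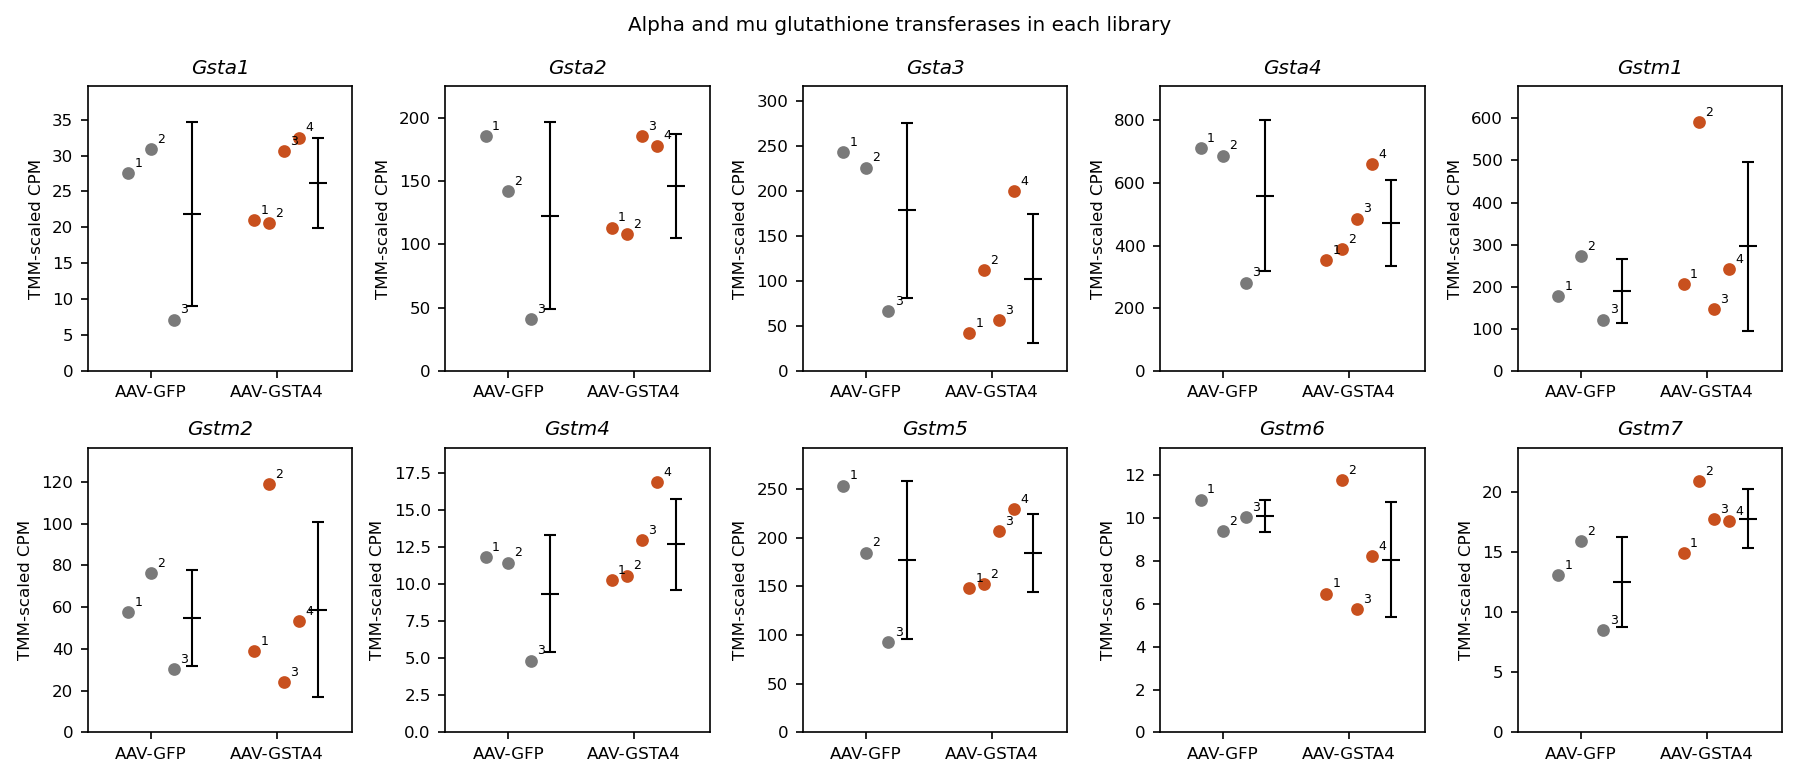
Expression of the 10 genes in each library, in TMM-scaled CPM on linear axes that start at 0. Grey points are the 3 AAV-GFP libraries, orange points the 4 AAV-GSTA4 libraries, numbers give the replicate, and the bars are the mean with 1 SD. The groups overlap in every panel, and AAV-GFP replicate 3 is the lowest of the 7 libraries in 7 panels.

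The 2 transgene rows test the labels. The hGSTA4 row held 3, 1 and 1 counts with AAV-GFP, and 4209, 5239, 45 and 1184 counts with AAV-GSTA4. Every AAV-GSTA4 library was therefore above every AAV-GFP library. The 4 AAV-GSTA4 libraries spanned 2.65 to 251 CPM, so replicate 3 carried little of the transgene's RNA. The fitted log2 fold change of 10.67 ± 1.77 (SE) had an unadjusted p of 0.000154 and an adjusted p of 0.363 (edgeR's quasi-likelihood test). The adjusted threshold therefore did not call even the introduced gene, and a gene that it leaves uncalled may still differ. The d2EGFP row, read from its name as the GFP transgene, held 99, 3970 and 2361 counts (4.61, 153 and 113 CPM) with AAV-GFP, and 163, 64, 7 and 26 counts (8.58, 3.07, 0.411 and 0.959 CPM) with AAV-GSTA4. The groups overlapped in it, because AAV-GFP replicate 1 carried little of its own transgene and was below AAV-GSTA4 replicate 1. The d2EGFP row therefore did not separate AAV-GFP replicate 1 from the AAV-GSTA4 group, while its 3 counts of hGSTA4 did.

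Gsta4 is the mouse counterpart of the transgene (ENSMUSG00000032348, GRCm38 chr9:78182774-78209349, plus strand). Its level was 711, 688 and 282 CPM with AAV-GFP, and 354, 389, 486 and 662 CPM with AAV-GSTA4. The lowest value of all 7 was in the AAV-GFP group, and AAV-GSTA4 replicate 4 was close to the upper AAV-GFP libraries. Mean Gsta4 was 560 ± 241 CPM (SD, n = 3) with AAV-GFP against 473 ± 138 CPM (SD, n = 4) with AAV-GSTA4. The fitted log2 difference was -0.25 ± 0.37 (SE), with a 95% interval of -1.07 to 0.58 and an adjusted p of 0.819 (edgeR's quasi-likelihood test). An exact permutation test of the mean log2 CPM gave p = 0.657, two-sided, in a design that cannot go below 0.0286. The interval spans lower as well as higher levels of the endogenous transcript. With single libraries left out the log2 difference ran from -0.56 to -0.03, and it was -0.03 without AAV-GFP replicate 1, -0.07 without replicate 2 and -0.56 without replicate 3.

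Gsta4 was also set beside the transgene within the AAV-GSTA4 group. Replicates 1 and 2, with 222 and 251 CPM of hGSTA4, had the lower mouse Gsta4 levels, and replicates 3 and 4, with 2.65 and 43.7 CPM of hGSTA4, had the higher ones. With 4 libraries this order is a description only. Replicates 3 and 4 also had the higher mean log2 CPM of RPE markers, 10.07 and 9.94 against 9.61 and 9.55 in replicates 1 and 2. Summed Y-linked transcripts parted them likewise, at 407 and 307 CPM against 0.158 and 2.83 CPM. The part of each in the order of Gsta4 was not tested. The 3 AAV-GFP libraries, which hold up to 17803 counts of mouse Gsta4, put at most 3 counts on the hGSTA4 row, so reads of the mouse gene were rarely counted as human. The reverse, reads of the transgene counted on mouse Gsta4, was not tested.

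**Figure D2:**
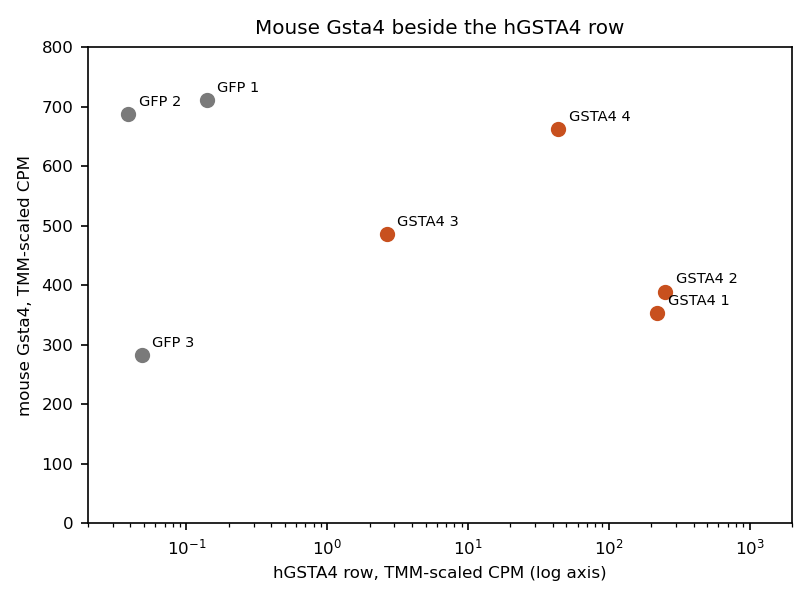
Mouse Gsta4 (vertical axis, TMM-scaled CPM, linear) against the hGSTA4 row (horizontal axis, TMM-scaled CPM, logarithmic) in the 7 libraries, grey for AAV-GFP and orange for AAV-GSTA4. The 4 AAV-GSTA4 libraries reach 354 to 662 CPM of mouse Gsta4, inside the AAV-GFP range of 282 to 711 CPM.

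Gsta1 and Gsta2 lie beside Gsta4 on chromosome 9, within 173.0 kb (chr9:78182774-78355788). Gsta1 (ENSMUSG00000074183, chr9:78230656-78242684, plus strand) and Gsta2 (ENSMUSG00000057933, chr9:78331018-78355788, minus strand) have coding sequences that are 97.6% identical, and Gsta1 is 99.7% identical to the neighbouring gene model Gm3776. These stretches come from GENCODE M21 transcripts and cover coding positions 577 to 666, counted from the A of the start codon. They were picked as the 90 bases with the most differences from Gsta1, and further differences lie elsewhere in the coding sequences. Capitals mark the bases that differ from Gsta1.
Gsta1: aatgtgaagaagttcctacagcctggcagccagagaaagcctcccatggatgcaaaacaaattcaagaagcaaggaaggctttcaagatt
Gsta2: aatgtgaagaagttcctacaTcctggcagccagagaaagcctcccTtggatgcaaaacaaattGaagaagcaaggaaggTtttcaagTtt
Gm3776: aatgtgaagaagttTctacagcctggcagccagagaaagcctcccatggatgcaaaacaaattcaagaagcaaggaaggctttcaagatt
Gsta2 differs from Gsta1 at 5 bases of this stretch and Gm3776 at 1. Of the 100-base windows of the Gsta1 transcripts, 80.6% also occur in a transcript of another gene, against 28.4% for Gsta2 and 0% for Gsta4. The Gsta1 value is therefore uncertain, since the rule for reads that fit several genes is not given in the sources used here.

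Gsta1, whose enzyme also acts as a peroxidase on lipid hydroperoxides, measured 27.6, 30.9 and 7.16 CPM with AAV-GFP and 21.1, 20.6, 30.6 and 32.5 CPM with AAV-GSTA4. Gsta2 measured 186, 142 and 41.0 CPM against 113, 108, 186 and 178 CPM in the same order. In both genes AAV-GFP replicate 3 was far below the other 6 libraries, and those 6 did not separate by vector. The log2 fold change was 0.26 ± 0.44 for Gsta1 (95% interval -0.74 to 1.26, adjusted p = 0.843) and 0.25 ± 0.45 for Gsta2 (-0.76 to 1.26, adjusted p = 0.850), in edgeR's quasi-likelihood test. Without AAV-GFP replicate 3 they turned to -0.16 and -0.16. The near-identical rows also overlapped between the vectors: Gm3776 had 7.42 ± 3.52 and 8.22 ± 1.50 CPM, and Gm10639, which is 98.5% identical to Gsta2 in its coding sequence, 4.14 ± 1.88 and 4.53 ± 1.47 CPM (SD, n = 3 and 4). When the 4 rows were summed before the fit, so that reads exchanged among them no longer mattered, the log2 fold change was 0.25 ± 0.44 (adjusted p = 0.850).

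Gsta3, an alpha enzyme known in mice for detoxifying the epoxide of aflatoxin, lies alone on chromosome 1 (ENSMUSG00000025934, chr1:21240589-21265661, plus strand). Its level was 243, 226 and 66.8 CPM with AAV-GFP and 42.4, 112, 56.4 and 200 CPM with AAV-GSTA4. AAV-GSTA4 replicates 1 and 3 were the lowest of the 7 libraries, and replicate 4 was near the upper AAV-GFP values. Its log2 fold change was -0.80 ± 0.57 (95% interval -2.08 to 0.48, adjusted p = 0.592, edgeR's quasi-likelihood test), and -1.32 to -0.51 with single libraries left out, the smallest being without AAV-GFP replicate 1. Mean Gsta3 was 179 ± 97.3 CPM (SD, n = 3) with AAV-GFP against 103 ± 71.6 CPM (SD, n = 4) with AAV-GSTA4.

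Gsta3 was low in the same AAV-GSTA4 libraries as markers of the ocular surface epithelium, the keratin-rich cover of the cornea and conjunctiva. All 8 of those markers were detected in every library, and their summed share of counts was 0.0869% to 0.107% in AAV-GFP. With AAV-GSTA4 it was 0.00825%, 0.0756%, 0.00917% and 0.0911%. Replicates 1 and 3 were low in both measures, whereas AAV-GFP replicate 3 was low in Gsta3 and highest in the marker share. The part of these cells in the Gsta3 values was not tested.

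The 6 mu genes form 1 cluster of 149.1 kb on chromosome 3 (chr3:107895821-108044894), with Gstm5 on the plus strand and the other 5 on the minus strand. Gstm1 (ENSMUSG00000058135, chr3:108012255-108017973) codes for a mu enzyme with broad activity on electrophiles that is abundant in mouse liver, and Gstm2 (ENSMUSG00000040562, chr3:107981702-107986453) for a close relative. Their coding sequences are 85.9% identical, so this pair is farther apart than Gsta1 and Gsta2. Coding positions 562 to 651 (GENCODE M21) are printed, a 90-base stretch picked for having the most differences. Capitals mark the 22 bases at which Gstm2 differs from Gstm1.
Gstm1: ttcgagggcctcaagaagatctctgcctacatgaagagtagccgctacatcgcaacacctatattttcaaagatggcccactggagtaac
Gstm2: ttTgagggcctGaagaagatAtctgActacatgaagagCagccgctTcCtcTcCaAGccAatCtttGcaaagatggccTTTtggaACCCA
Of the 100-base windows, 5.86% of Gstm1 and 0.36% of Gstm2 recur in another gene's transcripts, so these rows are less open to shared reads than Gsta1.

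Gstm1 measured 178, 273 and 122 CPM with AAV-GFP and 206, 591, 147 and 241 CPM with AAV-GSTA4. Gstm2 measured 57.7, 76.2 and 30.4 CPM against 38.9, 119, 24.0 and 53.3 CPM in the same order. AAV-GSTA4 replicate 2 was the highest library in both genes, and the other 3 lay within or below the AAV-GFP range. The log2 fold change was 0.64 ± 0.48 for Gstm1 (95% interval -0.45 to 1.72, adjusted p = 0.615) and 0.10 ± 0.51 for Gstm2 (-1.04 to 1.25, adjusted p = 0.955), in edgeR's quasi-likelihood test. Without AAV-GSTA4 replicate 2 they were 0.06 and -0.49.

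AAV-GSTA4 replicate 2 also stood apart in lens markers, which are mostly crystallins. These took 13.2% of its counts, against 0.465% to 2.87% in the other 3 AAV-GSTA4 libraries and 0.469% to 1.59% in AAV-GFP. Between 15 and 17 of the 19 lens markers were detected per library, with Crygf at 0 in all 7 and Cryga and Cryge at 0 in 6 each. With a lens marker score as covariate, chosen after those shares were seen, the log2 fold change was -0.06 for Gstm1 (adjusted p = 0.966) and -0.66 for Gstm2 (adjusted p = 0.526, edgeR's quasi-likelihood test). Whether lens cells supplied the mu transcripts was not tested.

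Gstm5 (ENSMUSG00000004032, chr3:107895821-107898686), a mu gene known from brain and testis, measured 254, 185 and 92.5 CPM with AAV-GFP and 149, 153, 207 and 230 CPM with AAV-GSTA4. The AAV-GFP values enclosed all 4 AAV-GSTA4 values. Its log2 fold change of 0.06 ± 0.34 had a 95% interval of -0.70 to 0.82 and an adjusted p of 0.962 (edgeR's quasi-likelihood test), and it was 0.41 without AAV-GFP replicate 1 and -0.25 without AAV-GFP replicate 3.

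The remaining 3 mu genes were expressed at low levels. Gstm7 (ENSMUSG00000004035, chr3:107926334-107931817) measured 13.1, 16.0 and 8.55 CPM with AAV-GFP and 15.0, 21.0, 17.8 and 17.6 CPM with AAV-GSTA4. Of the AAV-GSTA4 libraries, replicate 1 alone was below the highest AAV-GFP library. Its log2 fold change was 0.51 ± 0.29 (95% interval -0.14 to 1.16, adjusted p = 0.501, edgeR's quasi-likelihood test), and the exact permutation test gave p = 0.0857.

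Gstm4 (ENSMUSG00000027890, chr3:108040408-108044894) measured 11.8, 11.5 and 4.85 CPM against 10.3, 10.6, 13.0 and 16.9 CPM, with a log2 fold change of 0.44 ± 0.38 (adjusted p = 0.664, edgeR's quasi-likelihood test). AAV-GFP replicate 3 was once more the lowest library. Gstm6 (ENSMUSG00000068762, chr3:107938847-107943749) was the exception, at 10.9, 9.38 and 10.0 CPM against 6.47, 11.8, 5.76 and 8.23 CPM. Here AAV-GFP replicate 3 was not low, and the spread was in the AAV-GSTA4 group. The log2 fold change of Gstm6 was -0.32 ± 0.34 (adjusted p = 0.726). The row of a further mu gene of the cluster, Gstm3, held 1 and 3 counts in AAV-GSTA4 replicates 1 and 2 and 0 in the other 5 libraries, and it was not tested.

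**Figure D3:**
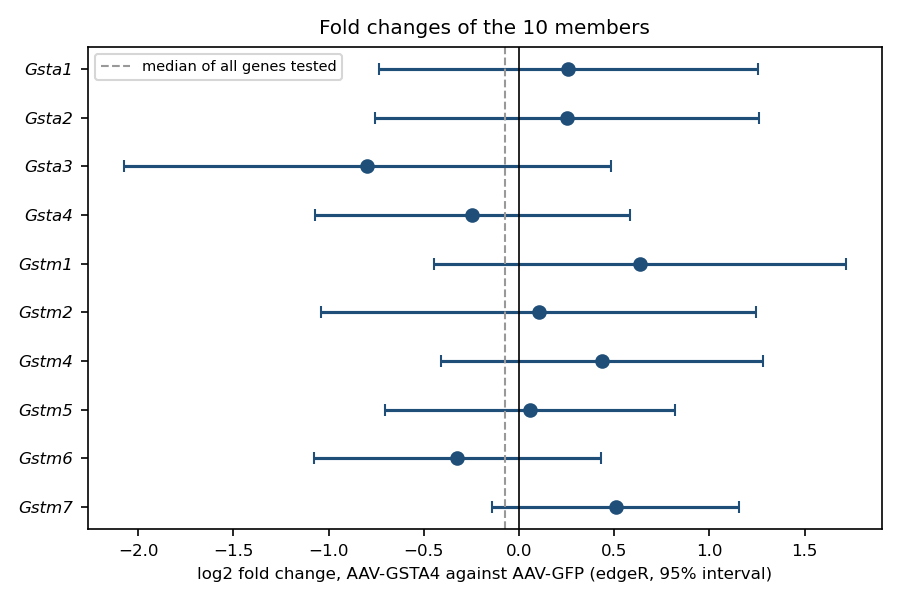
Log2 fold change of each gene, AAV-GSTA4 against AAV-GFP, from edgeR (points) with its 95% interval (bars). The solid line marks 0 and the dashed line the median of all genes tested, -0.07, and every interval includes 0.

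To compare genes with each other, CPM was divided by the exonic length of the gene in GENCODE M21. Gsta4 led with 443 ± 191 CPM per kb in AAV-GFP and 373 ± 109 in AAV-GSTA4 (SD, n = 3 and 4), and was the highest of the 10 in every library but AAV-GSTA4 replicate 2, where Gstm1 reached 401 CPM per kb against 308 for Gsta4. Gstm5, Gstm1 and Gsta2 followed at 138 ± 63.3, 129 ± 51.9 and 104 ± 63.0 CPM per kb in AAV-GFP, values closer to each other than their SDs. Gsta3, Gstm2 and Gsta1 came next at 41.1 ± 22.4, 32.6 ± 13.7 and 22.9 ± 13.4 CPM per kb, with the Gsta3 length of 4344 bases covering several isoforms. The places of Gsta1 and Gsta2 are uncertain, since 80.6% and 28.4% of their 100-base windows recur in other genes and the rule for such reads is not given. Gstm7, Gstm4 and Gstm6 were lowest at 7.83 ± 2.33, 5.50 ± 2.30 and 5.07 ± 0.372 CPM per kb. In AAV-GSTA4 the order differed in 2 places: Gstm1, at 201 ± 136 CPM per kb, passed Gstm5, at 144 ± 31.4, and Gsta3, at 23.7 ± 16.5, dropped below Gstm2 and Gsta1, at 35.0 ± 24.9 and 27.4 ± 6.54. The SDs of Gstm1 and Gstm2 were larger than the differences in these exchanges.

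The 10 genes together took 0.167%, 0.174% and 0.0903% of counts with AAV-GFP and 0.0921%, 0.139%, 0.102% and 0.153% with AAV-GSTA4. Alpha genes held 0.0943% ± 0.0350 (SD, n = 3) and 0.0685% ± 0.0220 (SD, n = 4), and mu genes 0.0493% ± 0.0119 and 0.0529% ± 0.0206. Within the 10, Gsta4 alone accounted for 42.0%, 41.5% and 42.4% of counts in the AAV-GFP libraries, a narrow range that held even in replicate 3. In AAV-GSTA4 it accounted for 37.0%, 25.3%, 41.4% and 40.4%, and the lowest of these was the lens-rich replicate 2, in which Gstm1 took 38.5%.

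Beside the marker shares, the 10 genes showed overlapping patterns across libraries, described here without a test. Gsta1, Gsta2, Gsta4, Gstm4 and Gstm5 were lowest in AAV-GFP replicate 3, the library with the lowest RPE and highest rod share. Gstm1 and Gstm2 were highest in the lens-rich library, and Gstm1 was also lowest in AAV-GFP replicate 3. Gsta3 and Gstm6 were lowest in AAV-GSTA4 replicates 1 and 3, the libraries with few ocular surface markers. Gstm7 was lowest in AAV-GFP replicate 3 and highest in the lens-rich library, and Gstm6 was also highest in the lens-rich library.

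**Figure D4:**
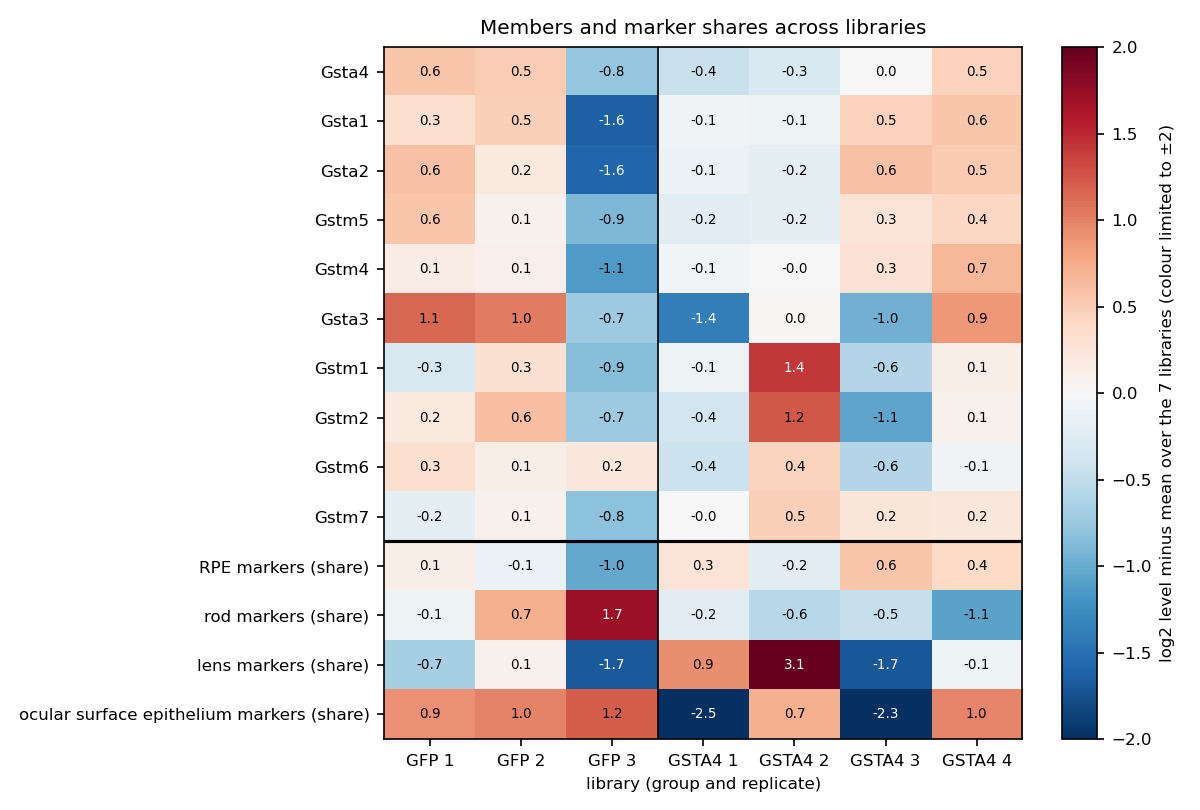
Each gene (top rows, log2 CPM) and each marker list (bottom rows, log2 share of counts) as the difference from its own mean over the 7 libraries, in log2 units printed in each cell. Red is above and blue below the mean, colour is limited to 2 units either way, and the vertical line parts the 3 AAV-GFP from the 4 AAV-GSTA4 libraries.

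Fits with a marker score as covariate put this in numbers. With the mean log2 CPM of the RPE markers in the model, Gsta4 had a log2 fold change of -0.80 (unadjusted p = 0.00418, adjusted p = 0.314), Gsta2 of -0.50 (0.0121 and 0.327) and Gstm5 of -0.47 (0.0290 and 0.375), by edgeR's quasi-likelihood test. These 3 of 10 genes had an unadjusted p under 0.05, against 11.9% of all genes in the same fit, and none passed the adjusted threshold. The RPE score was 8.19 in AAV-GFP replicate 3 and 9.51 to 10.07 elsewhere. Of the 20 RPE markers, 17 had a fold change above 0 and 3 below, so the RPE score is not independent of the vector. With the rod score instead, Gsta3 had -2.69 (0.000879 and 0.365) and Gsta4 -1.07 (0.0330 and 0.612), which is 2 of 10 against 8.01% of all genes. Because rod shares did not overlap between the vectors, the rod score and the vector are hard to tell apart in these fits. Gsta4 stayed below 0 in both, and the sign of Gsta1, Gsta2, Gstm2, Gstm4 and Gstm5 turned negative in both.

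Ratios between genes within a library do not depend on scaling. Of the 45 pairs among the 10 genes, 9 had ratios that did not overlap between the vectors, and the same held for 11.0% of all pairs of tested genes. These pairs were picked out after their values were seen and carry no test. Gsta4 to Gstm4 was the tightest: 60.1, 59.9 and 58.1 Gsta4 counts per Gstm4 count with AAV-GFP, and 34.3, 36.7, 37.4 and 39.2 with AAV-GSTA4. AAV-GFP replicate 3, low in both genes, had a ratio close to those of its group. The lowest AAV-GFP interval, 47.8 to 71.5 (exact binomial, 95%, counting error only), did not reach the highest AAV-GSTA4 interval, 35.7 to 43.1. On average it was 59.4 ± 1.08 (SD, n = 3) with AAV-GFP against 36.9 ± 2.02 (SD, n = 4) with AAV-GSTA4.

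Gstm1 to Gstm2 was 3.08, 3.58 and 4.01 in AAV-GFP and 5.29, 4.96, 6.11 and 4.53 in AAV-GSTA4, with means of 3.56 ± 0.464 (SD, n = 3) and 5.22 ± 0.669 (SD, n = 4). Although Gstm1 varied widely, its ratio to Gstm2 was above the AAV-GFP values in all 4 AAV-GSTA4 libraries. Gsta1 and Gsta2 were each higher relative to Gsta3 and to Gsta4, and Gstm4 relative to Gstm5, in AAV-GSTA4. Gsta3 to Gstm4 and Gstm6 to Gstm7 were lower there.

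**Figure D5:**
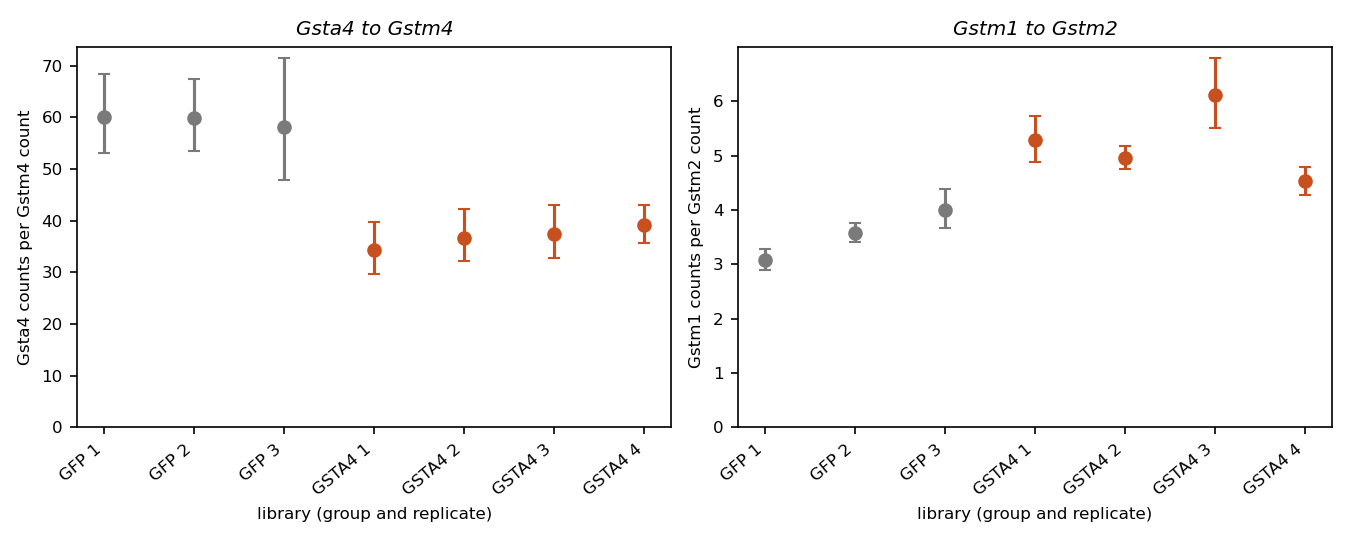
Counts of Gsta4 per count of Gstm4 (left) and of Gstm1 per count of Gstm2 (right) in each library, on linear axes from 0, with exact binomial 95% intervals that cover counting error only. The left ratio is 58.1 to 60.1 in AAV-GFP and 34.3 to 39.2 in AAV-GSTA4, and the right ratio 3.08 to 4.01 and 4.53 to 6.11.

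Y-linked transcripts divided the libraries in another way. The summed level of Ddx3y, Uty, Kdm5d and Eif2s3y was 465, 407 and 307 CPM in AAV-GFP replicate 1 and AAV-GSTA4 replicates 3 and 4, and 0.0772 to 2.83 CPM in the other 4. Gsta2, Gstm4 and Gstm5 were higher in all 3 libraries with Y-linked counts than in all 4 others. That is 3 of 10 genes, against 4.01% of all genes in this direction, in a split chosen after the data were seen and not stated in the labels. With this split as a covariate the log2 fold change between vectors was 0.15 for Gsta2, 0.35 for Gstm4 and -0.02 for Gstm5. The 3 libraries also had RPE shares of 7.60%, 10.2% and 9.16%, and the other 4 had 3.42% to 8.40%, so the RPE shares overlapped. The mean log2 CPM of the RPE markers did not overlap, at 9.67, 10.07 and 9.94 against 8.19 to 9.61 in the other 4. By that score, RPE content and the Y-linked split cannot be told apart. The part of RPE content or of the Y-linked split in the pattern was not tested.

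The same comparison was made for the rest of the glutathione conjugation pathway. No gene of these lists passed the adjusted threshold in edgeR's quasi-likelihood test. Of 15 other glutathione transferases tested, out of 17 in the table, 11 had a fold change above 0 and 4 below, with a median of 0.07, and 3 had an unadjusted p under 0.05, all above 0. Gstt2, a theta transferase, had 80.8 ± 25.6 CPM in AAV-GFP and 139 ± 23.7 in AAV-GSTA4 (log2 fold change 0.78 ± 0.28, adjusted p = 0.373). Ptges, a microsomal relative that makes prostaglandin E, had 110 ± 38.1 and 213 ± 63.6 CPM (0.95 ± 0.34, adjusted p = 0.373). In both genes the groups did not overlap.

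Among 11 genes that supply glutathione, 6 were above 0 and 5 below, with a median of 0.01, and 2 had an unadjusted p under 0.05. Slc1a1, a transporter that takes up glutamate and cysteine, had 358 ± 154 CPM in AAV-GFP and 746 ± 203 in AAV-GSTA4 without overlap (log2 fold change 1.06 ± 0.38, adjusted p = 0.373, edgeR's quasi-likelihood test). Gss, glutathione synthetase, had 56.8 ± 17.2 and 216 ± 262 CPM, and its AAV-GSTA4 mean rested on 608 CPM in the lens-rich replicate 2.

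Conjugates leave the cell through pumps and are trimmed to mercapturates. Of 18 such genes tested, 11 were above 0 and 7 below, with a median of 0.27, and 2 above and 1 below 0 had an unadjusted p under 0.05. Abcc1, the pump MRP1, which carries glutathione conjugates, had 72.3, 63.3 and 68.9 CPM with AAV-GFP and 122, 102, 160 and 131 CPM with AAV-GSTA4. Every AAV-GSTA4 library was above every AAV-GFP library, and AAV-GFP replicate 3 did not stand out. The log2 fold change of Abcc1 was 0.92 ± 0.22, with an unadjusted p of 0.00193 and an adjusted p of 0.363 (edgeR's quasi-likelihood test). Abcc4, another exporter, had 30.6 ± 8.05 and 49.3 ± 7.09 CPM without overlap (0.69 ± 0.25, adjusted p = 0.373), and Abcg2, an efflux pump, 11.7 ± 6.10 and 5.26 ± 2.09 CPM with overlap (-1.15 ± 0.47, adjusted p = 0.393).

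Of 11 tested regulators of glutathione transferase genes, 6 were above 0 and 5 below, with a median of 0.22. Nfe2l1, a transcription factor related to NRF2, was the 1 with an unadjusted p under 0.05. It measured 147, 101 and 126 CPM with AAV-GFP and 241, 183, 204 and 202 CPM with AAV-GSTA4, without overlap (log2 fold change 0.73 ± 0.22, adjusted p = 0.363, edgeR's quasi-likelihood test). Of 17 NRF2 targets outside the transferases, 12 were above 0 and 5 below, with a median of 0.28, and 0 had an unadjusted p under 0.05. Each of these counts stands beside a background of 11.9% of all genes at that unadjusted threshold. Groups without overlap were found for 2 of the 15 other transferases, 2 of the 11 supply genes and 2 of the 18 export genes. The same held for 1 of the 11 regulators, 1 of the 17 NRF2 targets and 12.0% of all genes. The genes named from these lists were picked for a small unadjusted p, so their lack of overlap is no separate evidence.

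The promoters were searched for the core of the antioxidant response element because several of the 10 genes are known NRF2 targets. The motif was TGACNNNGC, where N is any base, on either strand, from 250 bases before to 50 bases after each RefSeq start (GRCm38.p6). It occurred in 3 of the 9 genes with an entry in the table (Gsta4 had none), and in 14.0% of 27025 genes. A gene can have several starts, and counted by window it occurred in 3 of 14 (21.4%), against 12.4% of all 32851 windows. Each line runs 5′ to 3′ on the gene's strand with the core in capitals.
Gsta3: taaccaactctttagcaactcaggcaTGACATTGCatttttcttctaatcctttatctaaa
Gstm5: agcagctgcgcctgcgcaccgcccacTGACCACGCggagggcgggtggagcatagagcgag
Gstm7: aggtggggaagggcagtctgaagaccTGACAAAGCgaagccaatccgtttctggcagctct
These lie at chr1:21240438-21240498 (plus strand) for Gsta3, chr3:107895786-107895846 (plus strand) for Gstm5 and chr3:107931709-107931769 (minus strand) for Gstm7. The core begins 121 bases before the start of Gsta3, 42 before that of Gstm5 and 129 before that of Gstm7. Gsta3, Gstm5 and Gstm7 had log2 fold changes of -0.80, 0.06 and 0.51, so the fitted signs of the 3 genes with the motif differed, and none passed the threshold. A match is a description of letters and not of a bound site. Sequence outside these windows was not searched, so a gene without a match here may hold the motif farther away.

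Gsta1 and Gsta2 also resemble each other upstream. Both rows had nearly the same profile over the libraries, but they may share reads, and a link to the upstream sequence was not tested. The 150 bases before the RefSeq start (GRCm38.p6) are printed for each gene. Capitals mark bases that differ from their partner in the alignment or stand opposite a gap.
Gsta1: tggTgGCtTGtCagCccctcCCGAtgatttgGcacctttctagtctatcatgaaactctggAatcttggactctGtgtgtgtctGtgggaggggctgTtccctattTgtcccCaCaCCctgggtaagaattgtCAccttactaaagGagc
Gsta2: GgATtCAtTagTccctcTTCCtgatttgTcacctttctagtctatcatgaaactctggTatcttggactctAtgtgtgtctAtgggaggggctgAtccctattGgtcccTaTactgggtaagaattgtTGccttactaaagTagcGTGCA
They lie at chr9:78230519-78230668 (plus strand) and chr9:78347146-78347295 (minus strand). Gsta1 has 24 bases in capitals and Gsta2 27.

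The genes whose log2 CPM followed Gsta4 most closely, among 11110 genes with a mean of at least 2, were Micos10, Hmgn2 and Chrac1, with Pearson correlations of 0.988, 0.988 and 0.985 over the 7 libraries. Like Gsta4, Micos10 was lowest in AAV-GFP replicate 3, at 88.4 CPM, and highest in AAV-GFP replicate 1, at 211 CPM. Gstm5 was the nearest of the other 9 genes to Gsta4, at 0.899 and rank 242. For Gstm1 the closest were Tgfb3, Idh2 and Gpd1, at 0.988, 0.984 and 0.983, with Gstm2 at 0.903 and rank 93. Tgfb3 reached 83.3 CPM in the lens-rich AAV-GSTA4 replicate 2, against 14.5 to 29.3 CPM in the other 6 libraries. Gsta4 and Gstm1 themselves had a correlation of 0.13. The points share 7 libraries, their marker shares and their depth, so these figures are likenesses only.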

How the data were processed

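The labels describe full-length cDNA made from polyadenylated RNA with a low-input amplification kit and then cut by a transposase. They name no molecular identifiers, so amplified copies of a molecule cannot be told from separate molecules. The exact binomial intervals of the ratios and the floors cover counting error only and make no allowance for such copies. The 95% intervals of the fold changes come from edgeR's quasi-likelihood fit and include the spread between libraries. Raw read counts per gene symbol were deposited by the authors; STAR 2.7.1a and featureCounts 1.6.2 are named in the submitters' processing notes, with mouse and human genome builds. The annotation, strand setting and rule for multi-mapping reads are not given in the sources used here, so reads from overlapping or antisense genes cannot be told apart. Of the symbols, 24 stood on more than 1 row and each row was kept.

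Columns were matched to samples by library name, and replicates carry the title numbers. The quasi-likelihood F-test of edgeR 4.0.16 (R 4.3.3) was run on all 7 libraries, with TMM scaling, the default expression filter, robust dispersions, no block, and Benjamini-Hochberg adjustment over 15075 genes. A standard error is the fold change over the square root of F. Log2 CPM used a prior count of 2. Exact permutation tests used all 35 relabellings. Alternatives were other scaling and filters, blocks, marker covariates, single libraries left out, DESeq2 1.42.0, limma-voom (limma 3.58.1) and summed near-identical rows. The test was tested on simulated counts. Sequences were compared with Biopython 1.88 from GENCODE M21 and RefSeq (GRCm38) tables.

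Correlations of same-numbered libraries' deviations were -0.09, 0.00 and 0.01, so the numbers were not taken as pairs. The named genes were all 10 genes, from each other pathway list up to 2 genes in each direction with the smallest unadjusted p under 0.05, the 3 genes most like Gsta4 and Gstm1, and the transgene rows. Genes named beside a marker list, a near-identical row or the Y chromosome were added. The members and lists were chosen with earlier results of these data known. The authors' counts were the only unit used.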

Additional observations from a re-analysis of the deposited data

Results flagged for a closer look

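In 33 measures with 4 AAV-GSTA4 libraries, 2 had a library far from the other 3, where chance alone flags about 1 in 20 groups. Neither measure is one of the 10 alpha and mu genes. For Gss, glutathione synthetase, the gap from the highest library to the next was 0.910 of the group's range, above Dixon's critical value for 4 samples. AAV-GSTA4 replicate 2 had 608 CPM, while the lowest of the group was 54.5 CPM, and it is the library with 13.2% of counts on lens markers. For the share of counts on Mueller glia markers the gap was 0.898 of the range, with AAV-GSTA4 replicate 2 low at 0.585% and the highest library at 0.809%. By the mean log2 CPM of the same markers replicate 2 was not low, with 6.61, 6.39, 5.90 and 5.90 in AAV-GSTA4 replicates 1 to 4. The list includes Rlbp1, which is also in the RPE list.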

How the results depend on the processing

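None of the 10 genes passed the adjusted threshold under any alternative run, and Gsta3, Gsta4, Gstm6 and Gstm7 kept their sign in all 20 settings each. Their sizes varied, and the other 6 changed sign in at least 1 setting. Gstm2 turned to -0.14 with library totals, which moved the median of all genes from -0.07 to -0.37, to -0.51 with limma-voom, to -0.050 in the permutation test, and to -0.49 without AAV-GSTA4 replicate 2. Gstm5 turned to -0.17 with library totals, -0.017 with the Y-linked covariate and -0.034 without AAV-GSTA4 replicate 4. With the RPE covariate Gsta1, Gsta2, Gstm2, Gstm4 and Gstm5 came to -0.46, -0.50, -0.016, -0.081 and -0.47, and with the rod covariate to -0.52, -0.59, -0.65, -0.31 and -0.68. With the lens covariate Gstm1 and Gstm2 came to -0.061 and -0.66. Without AAV-GFP replicate 3, Gsta1, Gsta2, Gstm2 and Gstm5 came to -0.16, -0.16, -0.18 and -0.25. Leaving out 1 library each gave ranges of -0.16 to 0.59 for Gsta1, -0.16 to 0.68 for Gsta2, -0.49 to 0.42 for Gstm2, -0.25 to 0.41 for Gstm5, -0.56 to -0.03 for Gsta4, -1.32 to -0.51 for Gsta3, 0.06 to 0.99 for Gstm1, 0.13 to 0.64 for Gstm4, -0.55 to -0.18 for Gstm6 and 0.30 to 0.72 for Gstm7. Over all genes the count past the threshold was 0, 0 to 1 with single libraries left out (1 without AAV-GSTA4 replicate 3), 1 with the rod covariate and 199 with DESeq2. A replicate block by title number or by library-name number also gave 1 gene each, turned Gstm2 to -0.088 and -0.48, and changed no other call; with those pairings 0 and 2 of 6 libraries resembled their own number most. The cause was not tested. The planned sum of rows with near-identical proteins was not run, and rows near-identical in the coding sequence were summed instead. The lens and Y-linked covariates were chosen after seeing the data.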
